A study of Homo sapiens with 2 samples.

Results

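The 10 genes described here lie on both sides of the epidermal growth factor receptor gene EGFR in band 7p11 of chromosome 7. They are SEC61G, LANCL2, VOPP1, ZNF713, NIPSNAP2, MRPS17, CCT6A, SUMF2, PHKG1 and CHCHD2. They were chosen by symbol and position, with earlier results of these data known. Their symbols were matched to the Ensembl identifiers of the deposited matrix, and EGFR and PSPH, which lie among them, were left out. All 10 were found among the 30796 genes of the matrix, and all 10 were among the 15347 genes that had at least 20 unique molecular identifiers (UMIs, counted transcript molecules) over both lines, the genes called tested below. The study profiled 2 human breast cancer cell lines by Drop-seq, a droplet method that reads the 3′ end of polyadenylated RNA from single cells. Both lines, MDAMB468 and CAL51, are labelled as triple-negative breast cancer, that is, without the estrogen and progesterone receptors and without amplified HER2. No treatment, time point or genetic change is given for either line. Each line was represented by 1 library of cells from 1 cell line, so no difference between the lines has a replicate check, no p-value was computed, and the 95% intervals cover counting error only.

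EGFR is a receptor tyrosine kinase that drives cell growth when its ligands bind. The EGFR locus can be amplified in tumours, and an amplified segment can carry the genes beside EGFR with it. MDAMB468 is known as a line with EGFR amplification. DNA copy number was not measured in this series, so copy number and transcript level per copy cannot be told apart here.

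The MDAMB468 library held 306 cell barcodes with 5501900 UMIs. CAL51 held 1377 barcodes with 16358684 UMIs. A set of 31 barcode sequences occurred under both line names, and these were left out of CAL51, which left 1346 barcodes and 16223444 UMIs. The shared sequences held 39.6% of the MDAMB468 UMIs and 0.827% of the CAL51 UMIs. Median depth was 10016.5 UMIs per barcode in MDAMB468 (2501 to 134213) and 8635 in CAL51 (2506 to 113702). All 6 epithelial markers were detected in MDAMB468 and 4 of the 6 in CAL51, where KRT5 and KRT7 had 0 UMIs. Their summed level was 5476 CPM (UMI counts scaled to an equal total in each line) in MDAMB468 and 2787 CPM in CAL51. Of the 6, 4 were higher in MDAMB468. KRT8 (764 CPM against 919 CPM in CAL51) and KRT18 (555 CPM against 1555 CPM) were lower. Stromal fibroblast markers had 3 and 60 UMIs, endothelial markers 6 and 6, immune markers 0 and 5, and the estrogen and progesterone receptor genes 4 and 1, for MDAMB468 and CAL51 in that order.

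The 10 genes span 1354 kb, between positions 54752250 and 56106576 of chromosome 7 (GENCODE release 29, GRCh38). SEC61G is the only one of them on the short-arm telomere side of EGFR, with a gap of 259 kb to it. LANCL2 lies 154 kb beyond the other end of EGFR, VOPP1 224 kb, ZNF713 676 kb, NIPSNAP2 and MRPS17 both 740 kb, CCT6A 840 kb, SUMF2 852 kb, PHKG1 869 kb and CHCHD2 890 kb. LANCL2 runs on the plus strand and VOPP1 on the minus strand. The 2.31 kb between them separate the ends of their transcription, not their starts. NIPSNAP2 and MRPS17 overlap on the same strand, with gene models that begin at 55951793 and 55951819 in this annotation. The RefSeq promoter windows of the same genes end at 55964584 and 55951876, so the RefSeq start used for NIPSNAP2 lies farther downstream.

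RefSeq promoter sequences (GRCh38.p14) were given for 8 of the 10 genes, all but LANCL2 and CCT6A. The 250 bases before the start of transcription are shown for SEC61G (chr7:54759212-54759461, minus strand) and CHCHD2 (chr7:56106477-56106726, minus strand), the pair whose counts moved together most between MDAMB468 cells. They are shown beside those of NIPSNAP2 (chr7:55964335-55964584, plus strand), the gene with the smallest difference between the lines. Capitals mark the GC box GGGCGG, the CCAAT box CCAAT, the ETS core CCGGAAG and the TATA box TATAAA, each searched on both strands, with no capitals where none of these letters occur.
SEC61G: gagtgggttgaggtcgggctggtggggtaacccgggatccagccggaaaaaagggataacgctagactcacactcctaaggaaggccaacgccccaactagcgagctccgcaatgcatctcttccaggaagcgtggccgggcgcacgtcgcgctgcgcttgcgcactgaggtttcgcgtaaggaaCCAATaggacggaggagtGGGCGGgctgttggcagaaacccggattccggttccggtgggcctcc
CHCHD2: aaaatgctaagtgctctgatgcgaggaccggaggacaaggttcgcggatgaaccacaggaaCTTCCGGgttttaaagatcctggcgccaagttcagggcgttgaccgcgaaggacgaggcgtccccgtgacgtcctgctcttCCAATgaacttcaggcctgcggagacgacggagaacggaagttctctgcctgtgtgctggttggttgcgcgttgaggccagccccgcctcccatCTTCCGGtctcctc
NIPSNAP2: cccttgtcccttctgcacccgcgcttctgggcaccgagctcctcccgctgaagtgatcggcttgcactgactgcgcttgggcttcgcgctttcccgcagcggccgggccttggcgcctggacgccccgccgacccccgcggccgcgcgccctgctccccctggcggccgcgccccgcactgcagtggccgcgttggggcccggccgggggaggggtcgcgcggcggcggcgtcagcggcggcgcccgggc
SEC61G held a GC box and a CCAAT box, CHCHD2 a CCAAT box and the ETS core, and NIPSNAP2 none of the 4 motifs. The GC box was found in 5 of the 8 promoters and in 42.2% of 27305 promoters of the same length. The CCAAT box was in 5 of 8 and in 33.0% of all. The ETS core was in CHCHD2 alone of the 8 (8.78% of all), and the TATA box in none (11.2%). GC content was 62.4% for SEC61G, 59.2% for CHCHD2 and 79.2% for NIPSNAP2, beside a median of 57.6% over all promoters. These matches describe the letters only. The windows follow the RefSeq starts. On the minus strand the GENCODE model of SEC61G begins at 54759974, so the whole SEC61G window lies inside that model. The model of CHCHD2 begins at 56106576, so part of its window lies inside it.

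All 10 genes had a higher level in MDAMB468 than in CAL51. The difference was at least 2-fold for 9 of the 10 (18.9% of all tested genes), with NIPSNAP2 as the exception, and at least 4-fold for 4 of the 10 (9.40% of all tested genes). None was at least 2-fold lower (22.4% of all tested genes). The median log2 ratio of the 10 was 1.84, a ratio of 3.58, against -0.14 over all tested genes, a ratio of 0.906. The other 721 tested genes of chromosome 7, without EGFR and PSPH, had a median ratio of 0.917, and 126 of them (17.5%) were at least 2-fold higher. Only 8 of these lay within 5 Mb of EGFR. Their median ratio was 1.58, and 3 of them (37.5%) were at least 2-fold higher.

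SEC61G encodes the gamma subunit of the SEC61 translocon, the channel through which new proteins enter the endoplasmic reticulum. It had 18440 UMIs in MDAMB468, 3352 CPM (3303 to 3400), and 3471 UMIs in CAL51, 214 CPM (207 to 221). Its CPM ratio was 15.7 (15.1 to 16.2), and 5.17% of tested genes had a higher ratio. LANCL2 encodes a LanC-like protein, a relative of the bacterial enzymes that build lanthionine rings. Its level was 257 CPM (243 to 270, 1412 UMIs) in MDAMB468 and 14.2 CPM (12.5 to 16.2, 231 UMIs) in CAL51. Its ratio of 18.0 (15.7 to 20.8) was the highest of the 10, and its interval overlapped that of SEC61G. These are the genes on either side of EGFR, whose own ratio was 38.0 (32.8 to 44.1) on 2524 and 196 UMIs.

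VOPP1, first described as a gene amplified and overexpressed together with EGFR, is the neighbour of LANCL2. It had 239 UMIs in MDAMB468, 43.4 CPM (38.1 to 49.3), and 243 UMIs in CAL51, 15.0 CPM (13.2 to 17.0). Its ratio was 2.90 (2.42 to 3.48). The ratio of LANCL2 was 6.21 times that of VOPP1 (4.92 to 7.84). These genes run toward each other, with 2.31 kb between the ends of their transcription. ZNF713, which encodes a zinc finger protein, lies farther from EGFR and differed more. It had 225 UMIs in MDAMB468, 40.9 CPM (35.7 to 46.6), and 66 UMIs in CAL51, 4.07 CPM (3.15 to 5.18). Its ratio of 10.1 (7.61 to 13.4) was 3.46 times that of VOPP1 (2.47 to 4.89).

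NIPSNAP2 and MRPS17 encode mitochondrial proteins, MRPS17 a component of the small subunit of the mitochondrial ribosome. NIPSNAP2 had 3082 UMIs in MDAMB468, 560 CPM (541 to 580), and 4769 UMIs in CAL51, 294 CPM (286 to 302). Its ratio of 1.91 (1.82 to 1.99) was the lowest of the 10, and 19.9% of tested genes had a higher one. MRPS17 had 1797 UMIs in MDAMB468, 327 CPM (312 to 342), and 1113 UMIs in CAL51, 68.6 CPM (64.6 to 72.8), a ratio of 4.76 (4.42 to 5.14). The ratio of MRPS17 was 2.50 times that of NIPSNAP2 (2.29 to 2.73). Their exons share 112 bases on the same strand, 5.19% of the exon bases of MRPS17, and the sources used here do not say how reads from there were assigned. MRPS17 and ZNF713 also share exon bases with a readthrough gene (ENSG00000249773), which had 13 and 4 UMIs in MDAMB468 and CAL51.

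PSPH, which encodes a serine-producing phosphatase, lies between MRPS17 and CCT6A and had a ratio of 9.05 (8.18 to 10.01) on 1577 and 514 UMIs. Beyond PSPH the ratios lay closer together. CCT6A encodes the zeta subunit of the CCT chaperonin, the ring that folds actin and tubulin. It had 18660 UMIs in MDAMB468, 3392 CPM (3343 to 3441), and 15379 UMIs in CAL51, 948 CPM (933 to 963), a ratio of 3.58 (3.50 to 3.66). SUMF2, a relative of the enzyme that activates sulfatases, had 796 and 949 UMIs, 145 CPM (135 to 155) in MDAMB468 and 58.5 CPM (54.8 to 62.3) in CAL51. Its ratio was 2.47 (2.25 to 2.72).

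PHKG1 encodes the catalytic subunit of muscle phosphorylase kinase, which starts glycogen breakdown. It had 144 UMIs in MDAMB468, 26.2 CPM (22.1 to 30.8), and 130 in CAL51, 8.01 CPM (6.69 to 9.51). Its ratio was 3.27 (2.56 to 4.17). PHKG1 and SUMF2 share 388 exon bases on opposite strands, 14.0% of the exon bases of PHKG1, and the sources used here do not say whether the counting used strand. CHCHD2, a protein of the mitochondrial intermembrane space that also acts on transcription in the nucleus, had 16408 UMIs in MDAMB468, 2982 CPM (2937 to 3028). In CAL51 it had 13474 UMIs, 831 CPM (817 to 845), and its ratio was 3.59 (3.51 to 3.67). Pseudogenes of CHCHD2 held UMIs equal to 0.378% and 0.171% of those of the gene in MDAMB468 and CAL51, and those of CCT6A 2.70% and 2.31%.

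**Figure D1:**
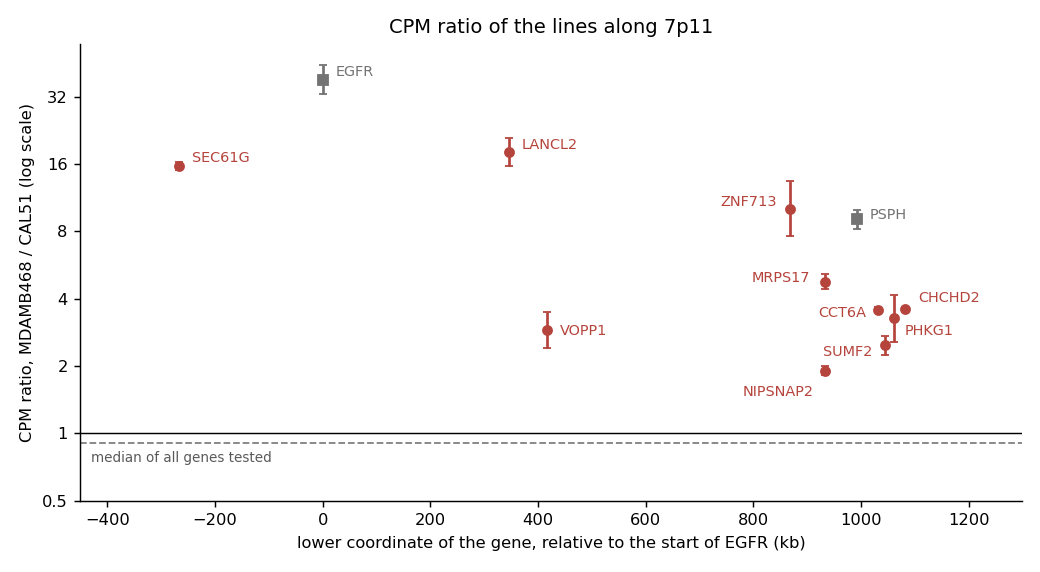
CPM ratio of MDAMB468 over CAL51 on a log scale against the lower coordinate of each gene relative to the start of EGFR in kb, with 95% counting intervals, red circles for the 10 genes and grey squares for EGFR and PSPH. Ratios are highest at EGFR (38.0) and its neighbours SEC61G (15.7) and LANCL2 (18.0), fall to 2.90 at VOPP1 next to LANCL2, and rise again to 10.1 at ZNF713, all above the dashed median of tested genes at 0.906.

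In order of their ratios, LANCL2 and SEC61G came first with overlapping intervals. ZNF713 and then MRPS17 followed, each separated from the next gene beyond counting error. CHCHD2, CCT6A, PHKG1, VOPP1 and SUMF2 formed a run in which each gene's interval overlapped that of the next, and NIPSNAP2 lay below them. The order of the ratios did not follow the distance from EGFR. A pseudocount of 10 CPM, which understates genes of low level, moved 3 ratios by more than 1.5 times: ZNF713 to 3.62, LANCL2 to 11 and PHKG1 to 2.01. The mean of CPM over barcodes also moved PHKG1, to 2.06. Without the shared barcode sequences in either line the median log2 ratio was 1.89. PHKG1 was then lower, at 2.48, and CCT6A and CHCHD2 higher, at 3.69 and 3.74. The share of all tested genes at least 2-fold higher was 16.6% in that setting.

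Outside the group, the nearest tested genes were sparse. NUPR2, 8.11 kb beyond CHCHD2, had 22 UMIs in MDAMB468 and 0 in CAL51. Its ratio was 21.6 with the 0 entered as a floor of 3 counts, and its interval began at 16.2. The next 2 on that side, both unnamed pseudogenes, had ratios of 1.06 (0.436 to 2.35, 198 kb from CHCHD2) and 0.310 (0.0351 to 1.29, 491 kb). On the SEC61G side the pseudogene HAUS6P1, 1563 kb away, had a ratio of 1.18 (0.745 to 1.82). The adaptor gene GRB10, 3959 kb away, had 1.99 (1.42 to 2.77), and DDC, the decarboxylase that makes dopamine, had 45.2 (14.5 to 227) on 46 and 3 UMIs. Within the span of the 10 genes, 15 other genes besides EGFR and PSPH had a UMI, and 1 of these was tested. It was PSPHP1, a pseudogene of PSPH chosen here after its values were seen, with 84 UMIs in MDAMB468 and 0 in CAL51. With the same floor its ratio was 82.6, and its interval began at 65.7.

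Few of the partners and relatives of these genes, encoded at other loci, were at least 2-fold higher in MDAMB468 (the share of all tested genes is 18.9%). For SEC61G the list held 15 other genes of the translocon and its associated proteins, all tested. Their median ratio was 0.772, none was at least 2-fold higher and 3 were at least 2-fold lower, from SEC61A2 at 0.344 (21 and 180 UMIs) to SSR4 at 1.23. Summed over the 15, the level was 2794 CPM in MDAMB468 and 3158 CPM in CAL51. For CCT6A, the 8 other chaperonin genes had a median ratio of 0.860, from CCT6B at 0.414 (8 and 57 UMIs) to CCT3 at 1.30. None was at least 2-fold higher and 1 was at least 2-fold lower.

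MRPS17 was set beside 26 other genes of the mitochondrial small subunit, with a median ratio of 1.04. Of these, 3 were at least 2-fold higher, MRPS24 (5.68 on 52 and 27 UMIs), MRPS21 (3.96) and MRPS15 (2.08), and none was at least 2-fold lower, with MRPS27 lowest at 0.573. For PHKG1, the 7 genes of phosphorylase kinase and its calmodulin subunit had a median of 0.644, from CALM3 at 0.333 to PHKA2 at 1.35. Of the 10 other twin CHCH domain genes, the family of CHCHD2, 1 was at least 2-fold higher (CHCHD10, 3.21) and 1 at least 2-fold lower (CHCHD7, 0.287), and their median was 1.22. The relatives LANCL1 (0.607) and SUMF1 (0.451), paralogs of LANCL2 and SUMF2, were lower in MDAMB468. The other LANCL2 paralog, LANCL3, was under the minimum of 20 UMIs and lay in the opposite direction, with 16 UMIs in MDAMB468 and 1 in CAL51 (ratio 47.2, 7.33 to 1978). The relatives of NIPSNAP2 ran from NIPSNAP3A at 0.430 to NIPSNAP1 at 1.21.

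**Figure D2:**
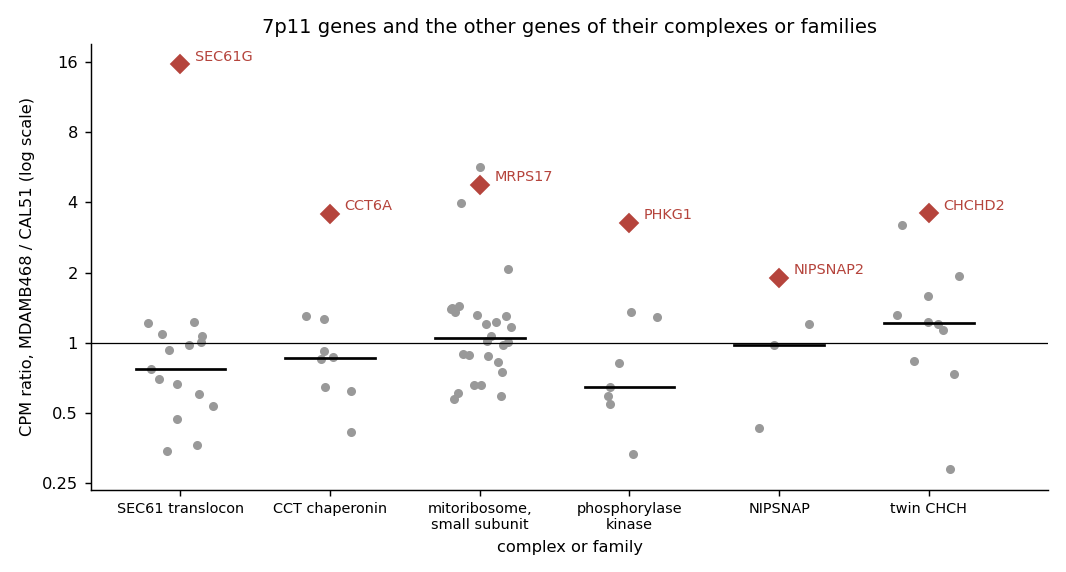
CPM ratio of MDAMB468 over CAL51 on a log scale for 6 of the 7p11 genes (red diamonds) and for the other tested genes of each complex or family (grey points, with a black line at their median). SEC61G at 15.7 stands above all 15 of its partners, which end at 1.23, CCT6A at 3.58 above partners that end at 1.30, and MRPS17 at 4.76 below MRPS24 at 5.68.

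The difference was then followed in single cells at equal depth. The 153 MDAMB468 and 558 CAL51 barcodes with at least 10000 UMIs were thinned at random to 10000 UMIs each. SEC61G had 4, 33 and 86 UMIs per barcode (lowest, median, highest) in MDAMB468 and 0, 2 and 9 in CAL51. It was above the highest CAL51 barcode in 146 of 153 MDAMB468 barcodes, 95.4% (exact binomial interval 90.8 to 98.1%). The remaining 7 MDAMB468 barcodes lay within the CAL51 range. CHCHD2 had 10, 29 and 51 UMIs in MDAMB468 and 1, 8 and 19 in CAL51, and 89.5% of MDAMB468 barcodes lay above the highest CAL51 barcode, a share that was 56.1% at 5000 UMIs. CCT6A had 11, 33 and 76 against 1, 10 and 26, with 79.1% above. In the other direction, 19.9% of CAL51 barcodes for SEC61G, 31.4% for CHCHD2 and 39.8% for CCT6A reached the lowest MDAMB468 barcode. These were the 3 genes of the 7 measurable at this depth whose median MDAMB468 barcode exceeded every CAL51 barcode (1.21% of 4295 genes did so).

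The other genes overlapped between the lines in most barcodes. NIPSNAP2 had 0, 5 and 15 UMIs in MDAMB468 and 0, 3 and 10 in CAL51, and MRPS17 had 0, 3 and 11 against 0, 0 and 6. SUMF2 had 0, 1 and 4 against 0, 0 and 4, with no MDAMB468 barcode above the highest CAL51 barcode. For the sparser genes the share of barcodes with a UMI differed. LANCL2 was seen in 90.8% of MDAMB468 and 12.2% of CAL51 barcodes, ZNF713 in 34.0% and 4.30%, VOPP1 in 28.1% and 12.7%, and PHKG1 in 19.0% and 6.09%. The series holds no cell type known to lack these genes, so the part of free RNA in the low shares was not tested. Summed, the 10 genes gave 33, 110 and 176 UMIs per MDAMB468 barcode, a median of 1.10% of its UMIs, and 9, 25 and 44 in CAL51, a median of 0.25%. The sum was above the highest CAL51 barcode in 151 of 153 MDAMB468 barcodes.

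**Figure D3:**
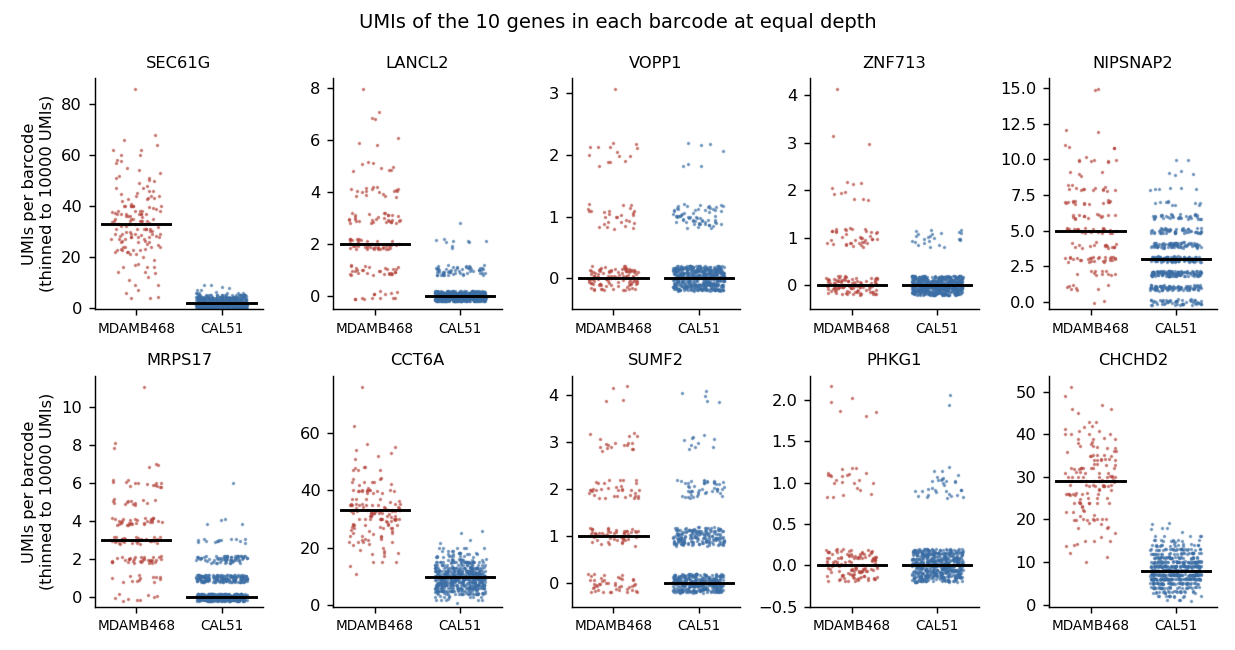
UMIs of each of the 10 genes per barcode after thinning to 10000 UMIs, 1 point per barcode with slight random offsets, for 153 MDAMB468 (red) and 558 CAL51 (blue) barcodes, with a black line at the median. The medians of SEC61G, CCT6A and CHCHD2, at 33, 33 and 29 UMIs, lie above every CAL51 barcode, although the lines overlap at the edges, and the other genes overlap more.

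SEC61G had the highest Fano factor of the 10 genes between MDAMB468 cells, a measure that rises with the mean. Its variance was 5.51 times its mean (the Fano factor, near 1 for counting noise alone), against 2.79 for CCT6A, 2.24 for CHCHD2 and 1.59 for NIPSNAP2. LANCL2 and MRPS17 were both at 1.06 and SUMF2 at 0.941. After the part that counting explains was removed, the coefficient of variation was 36.5% for SEC61G, 33.2% for NIPSNAP2, 23.3% for CCT6A and 20.5% for CHCHD2. It was higher for PHKG1 (72.9%), VOPP1 (71.7%) and ZNF713 (65.7%), which had means of only 0.229, 0.386 and 0.451 UMIs per barcode. In CAL51 the same quantity was 27.6% for SEC61G, 24.4% for CCT6A and 18.9% for CHCHD2, at mean counts of 2.15, 9.87 and 8.27 UMIs.

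The 7 MDAMB468 barcodes with no more SEC61G than the highest CAL51 barcode were picked out after the values were seen. Their medians of CHCHD2, CCT6A and EGFR were lower than those of all 153 barcodes. These barcodes had 4 to 9 UMIs of SEC61G, 10 to 27 of CHCHD2 with a median of 15, and 11 to 30 of CCT6A with a median of 15. The lower quartiles over all 153 barcodes were 24 for CHCHD2 and 28 for CCT6A, so not all 7 were low in both. EGFR had at most 1 UMI in each of the 7, beside a median of 4 over all 153 barcodes. Their sum over the 10 genes was 33 to 58, which is low in part by the choice itself, because the sum includes SEC61G. Low CHCHD2, CCT6A and EGFR also follow in part from the choice, because each correlated with SEC61G over the same 153 barcodes. LANCL2, with 0 to 3 UMIs and a median of 2, was at the median of all barcodes. These barcodes carried 392 to 600 UMIs of the 990 genes that were at least 8-fold higher in MDAMB468 without the region's genes, within the 280 to 672 of all MDAMB468 barcodes and above the 1 to 52 of CAL51. Their UMIs of the 763 genes at least 8-fold higher in CAL51 were 8 to 27, against 318 to 837 in CAL51 barcodes. Both gene sets were chosen by their ratios in these data, so the separation of the lines in them follows from the choice. The total depth of the 7 barcodes was 10788 to 49420 UMIs, and 1 of the 7 carried a sequence shared with CAL51.

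Between MDAMB468 cells at equal depth, SEC61G, CCT6A and CHCHD2, the 3 genes of the group with most UMIs, had correlations of 0.249 to 0.389 with each other, and most other pairs were weaker or could not be measured. Pairs were compared over the 7 genes with a mean of at least 0.5 UMIs, by Spearman correlation across the 153 barcodes, which share 1 library and 1 depth. The median over 21 pairs was 0.11, against 0.0011 over all 5463165 pairs of genes with such means. Of the 21 pairs, 18 were above 0 (50.5% of all pairs), and 6 were above 0.167, the 97.5 percentile (2.50% of all pairs). Pairs of genes on 1 chromosome no farther apart than these had a median of 0.00877 and a 97.5 percentile of 0.184 over 10081 pairs. These correlations describe 1 library, and many of the genes have few UMIs per barcode.

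The strongest pair was SEC61G with CHCHD2, at 0.389, although these are the outermost genes, 1348 kb apart. Each was the other's most correlated gene among 3305 here, and CHCHD2 ranked 2 for SEC61G without thinning, without the deepest 25% of barcodes and without the 7 barcodes of low SEC61G. SEC61G with CCT6A gave 0.334, NIPSNAP2 with CCT6A 0.287 and CCT6A with CHCHD2 0.249. NIPSNAP2 with SUMF2 gave 0.178 and with MRPS17 0.177, but with another random thinning these were -0.0205 and 0.112. The lowest was SUMF2 with CHCHD2, at -0.149. LANCL2, the gene with the highest ratio between the lines, gave 0.113 with SEC61G on a mean of 2.43 UMIs per barcode.

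Well counted genes correlate more in general, so the 3 abundant genes were also read against their like. Among all 65 genes with a mean of at least 20 UMIs, the median over 2080 pairs was 0.121, with 2.5 and 97.5 percentiles of -0.209 and 0.430. Of these pairs, 5.05% were above SEC61G with CHCHD2, 10.3% above SEC61G with CCT6A and 24.1% above CCT6A with CHCHD2. A Pearson-type correlation of the counts, with counting noise taken out of the variances, was 0.589, 0.419 and 0.451 for the 3 pairs. It is a different measure from the Spearman correlation, and the source of the rise was not tested. In the CAL51 barcodes the Spearman correlations of the same pairs were -0.0363, -0.0531 and 0.0172. Over 15 pairs of 6 measurable genes in CAL51 the median was -0.0267, with 5 above 0 (50.9% of all pairs) and none above the 97.5 percentile of 0.0973 (2.50% of all pairs). SEC61G is sparse in CAL51, but CCT6A and CHCHD2 had means of 9.87 and 8.27 UMIs there. A measure that does not shrink with counting noise, the covariance divided by the product of the means, was 0.0441, 0.0356 and 0.0216 in MDAMB468 and -0.00641, -0.0171 and 0.00192 in CAL51 for these pairs.

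**Figure D4:**
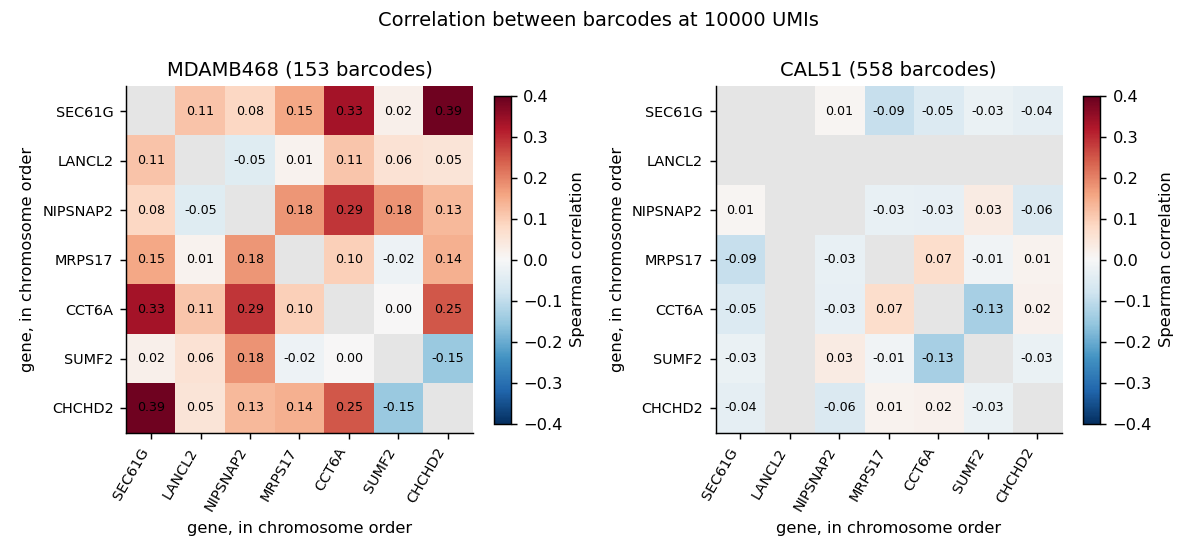
Spearman correlation between barcodes for each pair of the 7p11 genes with a mean of at least 0.5 UMIs, in chromosome order, at 10000 UMIs per barcode, with grey for genes under that mean and for the diagonal. In MDAMB468 the pairs among SEC61G, CCT6A and CHCHD2 lie at 0.389, 0.334 and 0.249, and no CAL51 pair exceeds 0.0708.

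The correlation of SEC61G with CHCHD2 held from 0.317 to 0.511 over 11 other ways of computing it, which included other depths, another random thinning, left-out shared barcodes and Pearson correlation on log values. Its lowest value came without the 7 barcodes of low SEC61G. Among the 11, the filter for sequences nearly identical to that of a deeper barcode removed no MDAMB468 barcode at 10000 UMIs. That filter could not change the value. The correlation of SEC61G with CCT6A fell to -0.00578 when 212 barcodes were thinned to 5000 UMIs, and was 0.310 at 20000 UMIs with 91 barcodes. NIPSNAP2 with CCT6A fell to 0.052 at 20000 UMIs, while SEC61G with LANCL2 was 0.412 there.

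**Figure D5:**
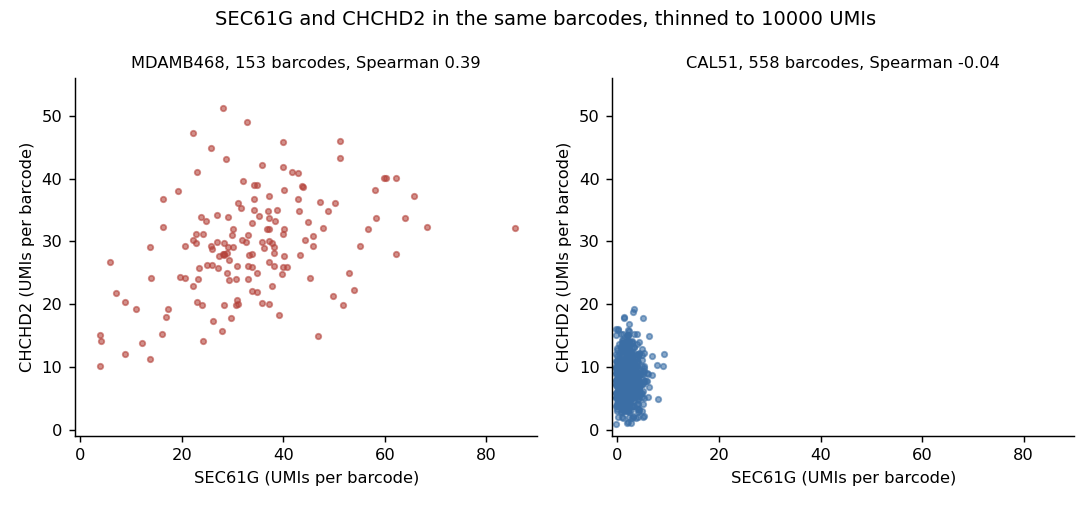
UMIs of SEC61G (horizontal axis) and CHCHD2 (vertical axis) in the same barcodes after thinning to 10000 UMIs, 1 point per barcode with slight random offsets, MDAMB468 on the left and CAL51 on the right. In MDAMB468 the points rise together (Spearman 0.389 over 153 barcodes), with a few barcodes low in both, and in CAL51 they do not (-0.0363 over 558 barcodes).

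Depth and mitochondrial content were only weakly correlated with the counts of these 3 genes. The correlation with the barcode's total UMIs before thinning was -0.0148 for SEC61G, -0.0729 for CCT6A and -0.160 for CHCHD2. With the mitochondrial share of UMIs it was -0.0823, -0.0287 and -0.163 in the same order, and 0.302 for SUMF2. UMIs of the 763 CAL51-high genes correlated with SEC61G at 0.0625, with CCT6A at -0.134 and with CHCHD2 at -0.116. Leaving out the 25% of barcodes with most of those UMIs gave 0.390 for SEC61G with CHCHD2. EGFR correlated with SEC61G at 0.293, with CCT6A at 0.135 and with CHCHD2 at -0.00797, and PSPH with CHCHD2 at 0.160.

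Genes outside the group reached similar values. Among those most like the sum of the 10 were HSP90AB1 (0.290), ANP32B (0.280), CLPTM1L (0.256) and RPS28 (0.239), over the same 153 barcodes, with 2.5 and 97.5 percentiles of -0.179 and 0.163 over 3306 genes. Among those most like SEC61G alone were S100A10 (0.383), PAIP1 (0.300), EGFR (0.293) and SLIRP (0.270). Of the genes named in these lists, EGFR was the only one on chromosome 7.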

How the data were processed

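The deposited values are raw UMI counts (whole numbers) for each gene in each barcode, made by the authors with STARsolo per the submitters' processing notes. Its version, genome build, annotation, strand setting and barcode selection were not given in the sources used here. Barcodes were assigned to a line by the line name in the barcode. Positions came from GENCODE release 29 (GRCh38) by Ensembl identifier, 1-based. Promoters came from RefSeq, GRCh38.p14.

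UMIs were summed per line and scaled to CPM, with no pseudocount. CPM carry exact Poisson intervals, ratios exact conditional intervals, and shares exact Clopper-Pearson intervals, at 95%. The interval of a ratio between 2 genes' ratios is the exact conditional interval of the odds ratio. Barcodes were thinned without replacement. No doublet caller was run, and undetected doublets remain. Named genes are the 10 genes, EGFR and PSPH, the 3 nearest tested genes per side, the highest and lowest partner of each list, and the 5 most alike genes, of which 1 is not reported here. MRPS15, MRPS21, LANCL3, PSPHP1, KRT5, KRT7, KRT8 and KRT18 fall outside this rule and were named after their values were seen. The ratio interval, the thinning and the covariance divided by the product of the means were checked on simulated data. The Spearman and noise-corrected correlations were not. The members and lists were chosen with earlier results of these data known. Alternatives covered scaling, count minimum, pseudocount, barcode filters, depth and seed. Software was R 4.3.3 with edgeR 4.0.16 (TMM factors), and scipy 1.17.1, numpy 2.4.6, matplotlib 3.10.9 and pandas 2.3.3 under Python 3.11.15.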

Additional observations from a re-analysis of the deposited data

How the results depend on the processing

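No paired analysis was possible because each line had 1 library. All 10 ratios stayed above 1 under the alternatives for scaling, barcode filters and pseudocount. The alternatives for the count minimum cannot change a ratio. NIPSNAP2 ranged from 1.72 to 2.08, so 10 genes instead of 9 were at least 2-fold higher with totals that left out mitochondrial and ribosomal protein genes and with the mean of CPM over barcodes. The count at least 4-fold higher ranged from 3 to 6. The median log2 ratio of 1.84 was 1.71 with TMM scaling, 1.70 with median of ratios scaling, 1.94 with the total without mitochondrial and ribosomal protein genes, and 2.04 with the mean over barcodes. The same scalings moved the median log2 ratio of all tested genes from -0.14 to -0.27, -0.29, -0.04 and -0.20. The share of all genes at least 2-fold higher was 18.9% with the minimum of 20 UMIs, 39.0% with none and 6.82% with a pseudocount of 10 CPM. The median pair correlation of 0.11 was 0.0451 at 5000 UMIs, 0.0541 without the 7 barcodes of low SEC61G, 0.176 without thinning and 0.334 for the 3 genes with a mean of at least 20 UMIs. The share of MDAMB468 barcodes with SEC61G above the highest CAL51 barcode was 89.6% at 5000 UMIs, against 95.4% at 10000, and that for CHCHD2 was 56.1% against 89.5%. The alternatives that left out shared sequences in MDAMB468, the deepest 25% of barcodes, mitochondrial genes before thinning, the 25% with most CAL51-high UMIs or the 7 barcodes of low SEC61G, and that kept 3 genes, were chosen after seeing the data. Depth limits the sparse genes VOPP1, ZNF713 and PHKG1, whose pairs could be measured only at 20000 UMIs. The cause of these shifts was not tested.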
